A study of Mus musculus with 19 samples.

Results

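The 9 C-type lectin receptor genes of myeloid cells described here were chosen by gene symbol from the 38887 genes of the count table and followed in 19 RNA-seq libraries of mouse spleen myeloid-derived suppressor cells (MDSC). The 9 genes were Clec7a, Clec4e, Clec4d, Clec4n, Clec5a, Clec12a, Clec4a2, Clec4a1 and Clec4a3, and all 9 passed the expression filter that left 12943 genes for testing. The design separated 2 kinds of MDSC, polymorphonuclear (PMN-MDSC, CD11b+ Ly6G+ cells with intermediate Ly6C) and monocytic (M-MDSC, CD11b+ cells with high Ly6C and no Ly6G), and for each kind it set newborn mice of 7 days against adult mice of 6 to 8 weeks. There were 5 libraries of newborn PMN-MDSC, 6 of adult PMN-MDSC, 5 of newborn M-MDSC and 3 of adult M-MDSC. The labels describe flow sorting of both kinds and, in another place, magnetic selection of PMN-MDSC through Ly6G, and they do not make clear which gave these PMN-MDSC libraries. They name no strain, genotype, treatment or tumour for any group, so the groups are given by age and cell type alone. They do not say whether replicates came from separate animals or from pools, so every p-value measures the spread between these libraries, which may in part be technical.

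C-type lectin receptors of myeloid cells bind sugars, lipids and released cell contents, and most of them signal to the inside of the cell through short tyrosine motifs. The activating ones either carry such a motif themselves, as Clec7a does, or borrow it from the adaptors Fcer1g and Tyrobp. The kinase Syk and the Card9 complex then lead to cytokine genes. Hcst, a further adaptor used by Clec5a, is counted with Fcer1g and Tyrobp below. The inhibitory ones, among them Clec12a and Clec4a2, carry a motif that recruits the phosphatases Ptpn6 and Ptpn11. On neutrophils, monocytes and dendritic cells these receptors are best known for sensing fungi, mycobacteria and dead cells.

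The 9 genes did not move as a block. In newborn PMN-MDSC, compared with adult PMN-MDSC, both inhibitory receptors Clec12a and Clec4a2 and the activating receptor Clec5a were higher, while Clec7a, Clec4e, Clec4d, Clec4a1 and Clec4a3 were lower. In newborn M-MDSC, compared with adult M-MDSC, Clec12a, Clec4a2 and Clec5a were again higher and Clec4e, Clec4d, Clec4a1, Clec4a3 and Clec4n lower, but Clec7a did not pass the test, and several of these calls rested on single libraries. The age effect differed between the cell types for Clec7a, Clec12a and Clec4a2 in a test of the difference itself.

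The labels name 2 batches of unequal depth: the 10 libraries of the first held 827744 to 2965896 counts each, and the 9 of the second held 14026193 to 45135933 each. A count of 0 therefore allowed up to between 0.990 and 3.29 counts per 1000000 counts of the scaled library (CPM) in batch 1 and between 0.0601 and 0.197 CPM in batch 2, from 3 counts per library and for counting error only. No member passed the test for a difference between the batches (edgeR's quasi-likelihood test, adjusted p = 0.999 for each). Libraries of PMN-MDSC resembled each other across the batches in pairs. In adults replicate 1 resembled replicate 32, 2 resembled 33 and 3 resembled 34, and in newborns 2 resembled 37 and 3 resembled 38. Between the partners of these 5 pairs the chi-square statistic per degree of freedom was 2.38 to 6.29, against 6.89 to 19.7 for the 10 other pairings of libraries of 1 group across the batches. The partners may share their starting material, which the labels do not state, so results on PMN-MDSC are also given without the 5 batch 1 partners. All other SEs, SDs and p-values on PMN-MDSC treat the partners as separate libraries. They may be too small if the partners share material. The fit over all 19 libraries shares the spread between groups. The SEs and p-values on M-MDSC from that fit may therefore be too small for the same reason.

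All 9 genes lie on chromosome 6 of the mouse (GENCODE M21, GRCm38). The Clec4 genes form a cluster of 368.0 kb. It runs from Clec4a1 (122921848 to 122934619, plus strand) through Clec4a3 (122952515 to 122969875, plus), Clec4a2 (123106428 to 123143999, plus), Clec4n (123229843 to 123247021, plus) and Clec4d (123262111 to 123275265, plus) to Clec4e (123281789 to 123289870, minus). Clec12a (129342691 to 129365303, plus) and Clec7a (129461591 to 129472779, minus) lie further along, and Clec5a (40574894 to 40585821, minus) lies apart from both. Not all neighbours within the cluster shared a direction of change with age in PMN-MDSC. Clec4a2, which sits between Clec4a3 and Clec4n in the order above, was higher in newborns. Clec4a1, Clec4a3, Clec4d and Clec4e were lower, and Clec4n was not called. No stretch of 50 bases, the read length, was shared between transcripts of any members. With genes other than members, 6.83% of such stretches were shared for Clec4a2, 0.686% for Clec4n, 0.457% for Clec12a and none for the other 6, so Clec4a2 is the member whose counts could most be affected by how reads were assigned. Clec4a2 also overlaps the predicted gene Gm44132 on the same strand. GENCODE M21 gives Clec7a the biotype polymorphic pseudogene, and the other 8 are protein coding.

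Promoter sequence is shown for 4 members, 2 that were higher in newborn PMN-MDSC (Clec12a and Clec5a) and 2 that were lower (Clec7a and Clec4e), so that genes which moved in opposite directions can be read beside each other. Each line gives the 250 bases before the RefSeq start that comes first by coordinate (GRCm38.p6), 5′ to 3′ on the strand of the gene. For Clec7a, on the minus strand, another start lies further upstream, with its window at chr6:129472786-129473035. The coordinates are chr6:129349994-129350243 (plus) for Clec12a, chr6:40585806-40586055 (minus) for Clec5a, chr6:129472780-129473029 (minus) for Clec7a and chr6:123289872-123290121 (minus) for Clec4e. Capitals mark 2 motifs searched on both strands, GAGGAA (the core bound by the myeloid factor PU.1, read as TTCCTC on the other strand) and TTGCNNAA (a C/EBP motif).
Clec12a: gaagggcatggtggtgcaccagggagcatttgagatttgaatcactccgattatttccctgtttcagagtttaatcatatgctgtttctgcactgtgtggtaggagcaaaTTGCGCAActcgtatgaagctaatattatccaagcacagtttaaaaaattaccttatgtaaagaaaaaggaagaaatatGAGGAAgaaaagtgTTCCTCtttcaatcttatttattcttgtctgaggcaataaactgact
Clec5a: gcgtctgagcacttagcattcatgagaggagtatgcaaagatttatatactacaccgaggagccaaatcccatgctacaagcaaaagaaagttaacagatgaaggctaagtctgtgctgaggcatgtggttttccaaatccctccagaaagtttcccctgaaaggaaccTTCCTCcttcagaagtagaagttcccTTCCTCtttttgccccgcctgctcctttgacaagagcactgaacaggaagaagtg
Clec7a: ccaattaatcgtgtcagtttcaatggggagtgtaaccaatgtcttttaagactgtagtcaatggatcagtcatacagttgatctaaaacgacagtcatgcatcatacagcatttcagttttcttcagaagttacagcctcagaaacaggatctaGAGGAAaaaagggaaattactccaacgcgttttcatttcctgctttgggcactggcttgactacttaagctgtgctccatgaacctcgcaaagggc
Clec4e: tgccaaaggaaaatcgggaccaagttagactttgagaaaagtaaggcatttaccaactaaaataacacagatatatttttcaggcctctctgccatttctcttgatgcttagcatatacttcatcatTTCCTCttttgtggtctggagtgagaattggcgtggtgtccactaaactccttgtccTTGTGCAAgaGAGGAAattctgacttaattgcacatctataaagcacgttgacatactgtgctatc

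The PU.1 letters were present in all 4 of these windows, in both directions of change. Of the 8 members with a RefSeq promoter, 6 held GAGGAA at the first start by coordinate and 7 at any start. It was held by 23.4% of 32536 promoter windows of the same length. TTGCNNAA was present in 2 of the 8, Clec12a and Clec4e, against 9.57% of the windows. The interferon response motif, here GAAA followed by any 2 bases and GAAA again, was in 0 of the 8, against 2.98% of the windows. These motifs were chosen after the sequences had been seen, none of the 3 overlapped another in a member, and a match describes letters only. Clec4n was not matched. The start of Clec12a used here lies inside its GENCODE gene, which begins further upstream.

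The first comparison asks how newborn PMN-MDSC differ from adult PMN-MDSC. Of the 9 members, 3 were called higher in newborns and 5 lower, and 1, Clec4n, was not called (edgeR's quasi-likelihood test over 12943 genes, Benjamini-Hochberg adjusted p under 0.05). Among all genes tested, 47.7% were called in this comparison, 27.1% higher and 20.5% lower, so a call by itself was common here. Upper-quartile scaling turned the split over all genes from 3514 higher and 2657 lower to 2756 and 3552, and left the members at 3 higher and 5 lower. The ranges of newborn and adult libraries did not overlap for any of the 9 members, which was the case for 51.4% of all genes tested. The median log2 fold change over all genes was -0.05.

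**Figure D1:**
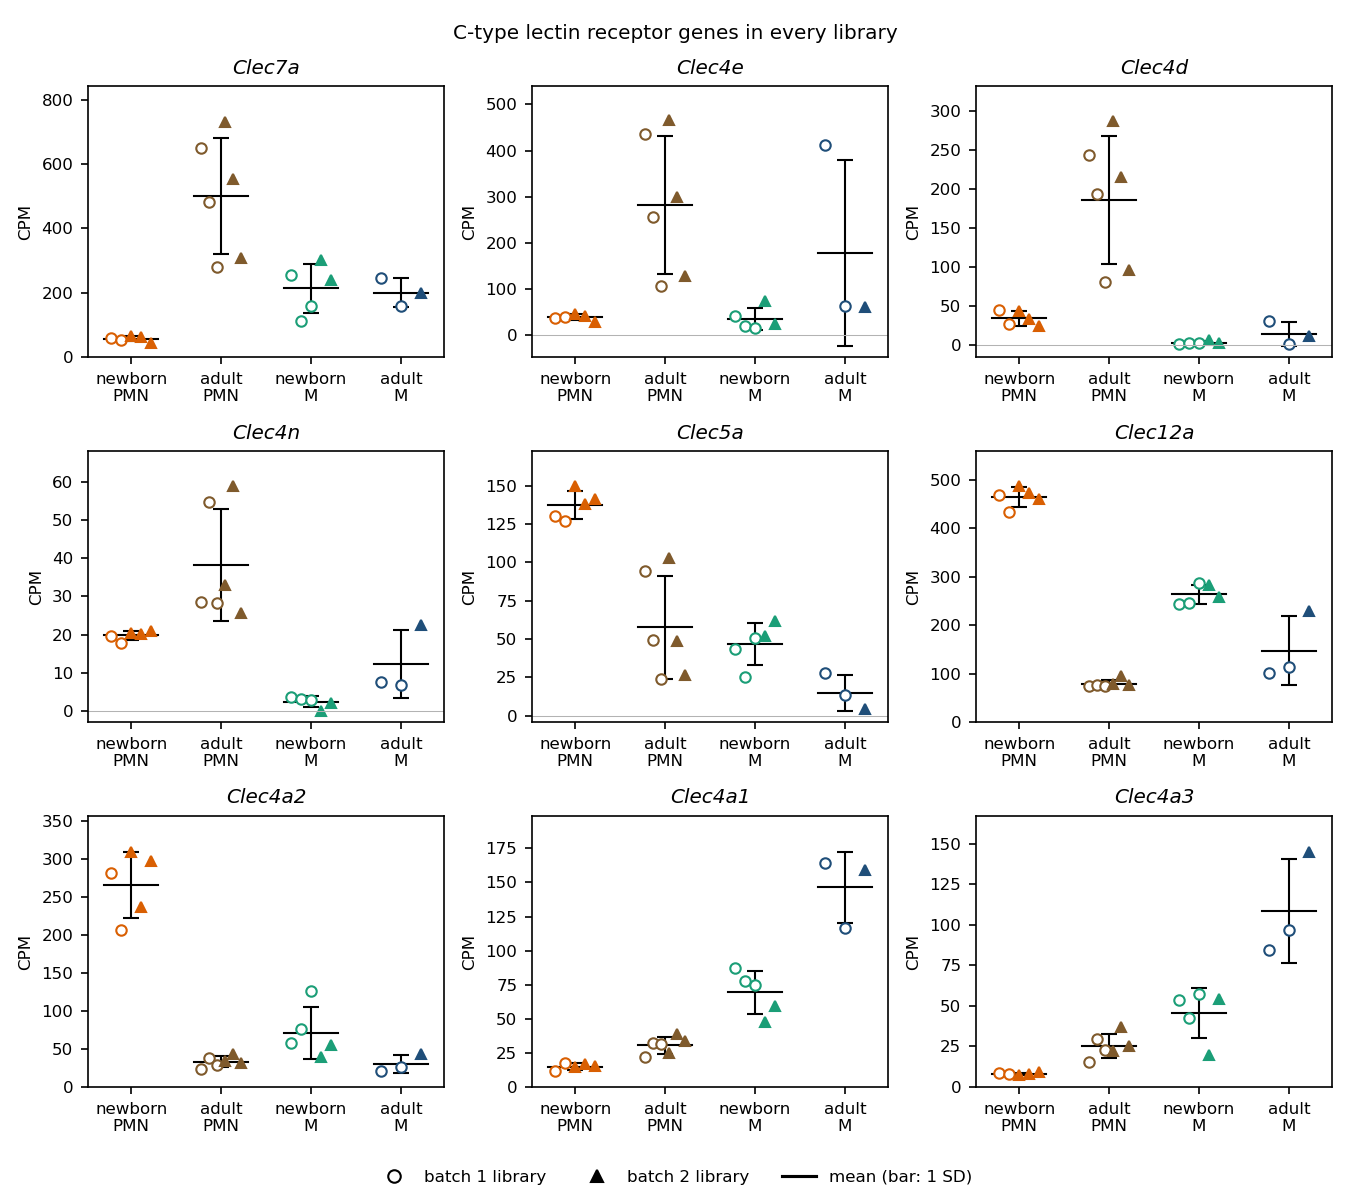
CPM of each member in every library by group (open circles, batch 1; filled triangles, batch 2; horizontal line, mean; vertical bar, 1 SD). Newborn PMN-MDSC libraries lie close together for Clec12a, between 433 and 488 CPM, above adult PMN-MDSC, between 73.4 and 95.3 CPM, while Clec7a shows the opposite order with 44.5 to 63.9 CPM in newborn and 281 to 732 CPM in adult PMN-MDSC.

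Clec7a encodes Dectin-1, the receptor for fungal beta-glucan. It was at 58.5, 52.3, 63.9, 62.5 and 44.5 CPM in newborn PMN-MDSC, against 281, 517 and 732 CPM (lowest, median and highest of 6) in adult PMN-MDSC. Every newborn library was below every adult one by a wide gap. Clec7a was 9.03-fold lower in newborns (log2 fold change -3.17 ± 0.28, SE; adjusted p = 3.36e-08), and 2.60% of genes tested had one as low or lower.

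Clec4e encodes Mincle, which binds the mycobacterial glycolipid cord factor and a nuclear protein released from dead cells. Newborn PMN-MDSC had 37.2, 40.2, 45.7, 42.6 and 28.1 CPM of Clec4e, against 107, 278 and 466 CPM at the lowest, median and highest in adult PMN-MDSC. All newborn libraries were low, and the adult ones were spread over a 4.34-fold range above them. On the log2 scale the change was -2.87 ± 0.56 (SE; adjusted p = 3.17e-04).

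Clec4d encodes the partner that pairs with Mincle at the cell surface, and its gene is the direct neighbour of Clec4e. Its level was 44.3, 26.4, 44.2, 32.9 and 24.0 CPM in newborn PMN-MDSC, against 80.4, 205 and 288 CPM at the lowest, median and highest in adult PMN-MDSC. Newborn libraries were again all below the adult ones, and the log2 fold change came to -2.46 ± 0.48 (SE, with an adjusted p of 3.38e-04). Clec4n, which encodes Dectin-2, a receptor for fungal mannans, was at 19.7, 17.7, 20.5, 20.2 and 20.9 CPM in newborn PMN-MDSC, against 25.6, 30.8 and 59.0 CPM at the lowest, median and highest in adult PMN-MDSC. The ranges did not overlap, yet the difference did not pass the test across genes (log2 fold change -0.96, 95% interval -2.10 to 0.18, adjusted p = 0.159). It passed when only the PMN-MDSC libraries entered the fit and when newborn M-MDSC replicate 77, which had 0 counts of Clec4n, was left out, with adjusted p between 0.00198 and 0.553 over all alternatives.

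Clec5a encodes MDL-1, which signals through Tyrobp and Hcst and is known as a receptor for dengue virus. In newborn PMN-MDSC it was at 130, 127, 150, 138 and 141 CPM, against 24.0, 48.8 and 103 CPM at the lowest, median and highest in adult PMN-MDSC. The newborn libraries differed little from each other and all lay above the adult ones. In log2 units the difference was 1.27 ± 0.40 (SE; adjusted p = 0.0138). This was the member with the weakest call: it was lost within batch 1 (1.22, adjusted p = 0.0650) and without the batch 1 partners (adjusted p = 0.129), and held within batch 2 (1.34, adjusted p = 0.0397).

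Clec12a encodes MICL, an inhibitory receptor that binds uric acid crystals of dead cells. It was at 468, 433, 488, 473 and 461 CPM in newborn PMN-MDSC, against 73.4, 76.8 and 95.3 CPM at the lowest, median and highest in adult PMN-MDSC. Both groups were tight, and the gap between them was far larger than either range. Clec12a was 5.79-fold higher in newborns (log2 fold change 2.53 ± 0.15, SE; adjusted p = 1.93e-10), the smallest adjusted p of the 9 members.

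Clec4a2 encodes an inhibitory receptor of the DCIR group. Newborn PMN-MDSC had 281, 206, 309, 236 and 297 CPM, against 24.1, 33.0 and 43.5 CPM at the lowest, median and highest in adult PMN-MDSC. No adult library came near a newborn one. Clec4a2 was 7.79-fold higher in newborns (log2 fold change 2.96 ± 0.27, SE; adjusted p = 3.80e-08).

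Clec4a1 and Clec4a3 encode relatives of Clec4a2 that lack the inhibitory motif in the mouse, and they went the other way. Clec4a1 was at 11.5, 17.3, 14.5, 16.6 and 15.1 CPM in newborn PMN-MDSC, against 21.9, 31.9 and 39.1 CPM at the lowest, median and highest in adult PMN-MDSC. Clec4a3 was at 8.75, 7.78, 7.63, 8.05 and 8.99 CPM in newborn PMN-MDSC, against 15.3, 24.1 and 37.0 CPM at the lowest, median and highest in adult PMN-MDSC. Both were lower in every newborn library, with log2 fold changes of -1.03 ± 0.19 for Clec4a1 (adjusted p = 1.74e-04) and -1.66 ± 0.27 for Clec4a3 (SE; adjusted p = 4.69e-05).

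Within batch 1 and within batch 2, all 9 members had the direction of the pooled result in PMN-MDSC. For Clec7a the log2 fold change was -3.10 within batch 1 and -3.15 within batch 2, for Clec12a 2.57 and 2.58, and for Clec4a2 2.95 and 3.02. Because PMN-MDSC libraries resemble each other across the batches, these are not 2 independent repeats. Without the 5 batch 1 partners, 2 members were higher and 5 lower, Clec5a being the call that was lost. Over 32 alternatives, this one among them, Clec7a, Clec12a and Clec4a2 stayed called. Their log2 fold changes ran from -3.41 to -2.79, from 2.30 to 2.58 and from 2.73 to 3.07.

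Other cells' markers moved with age in the same libraries. The summed level of 13 neutrophil markers was 90555 to 101306 CPM in newborn PMN-MDSC, against 9927 to 10696 CPM in adult PMN-MDSC. Ly6g, the gene of the antigen used to isolate these cells, was at 176 to 245 CPM in newborn PMN-MDSC, against 12.1 to 24.7 CPM in adult PMN-MDSC, so the adult libraries carry their label's defining marker at a low level. In M-MDSC libraries Ly6g was at most 1.85 CPM, while the monocyte receptor gene Ccr2 was at 228 to 941 CPM in newborn and 300 to 700 CPM in adult M-MDSC and at most 22.7 CPM in PMN-MDSC.

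The summed level of 11 dendritic cell markers was 430 to 594 CPM in newborn PMN-MDSC, against 4110 to 5181 CPM in adult PMN-MDSC. That of 10 B cell markers was 582 to 899 CPM in newborn PMN-MDSC, against 3983 to 6239 CPM in adult PMN-MDSC. Of the dendritic cell markers 4 were called lower and 7 were not called, so their sum does not stand for the whole list. All 10 B cell markers were called lower. None of these markers was at 0 in either group. Erythroid markers (10) summed to 2889 to 5347 CPM in newborn PMN-MDSC, against 183 to 479 CPM in adult PMN-MDSC, and 8 of the 10 were called higher, with a median log2 fold change of 3.90. Of 11 monocyte markers 3 were higher and 7 lower, with summed levels of 1189 to 1435 CPM in newborn PMN-MDSC, against 1577 to 2419 CPM in adult PMN-MDSC. T cell and NK cell markers had 3 lower each, of 10 and 7, and macrophage markers 3 lower of 11, with none higher. Over all genes tested 27.1% were called higher and 20.5% lower, so the shares of T cell and macrophage markers lie near that background. Eosinophil markers (8) summed to 335 to 863 CPM in newborn PMN-MDSC, against 60.1 to 124 CPM in adult PMN-MDSC, where Epx, Ear1 and Ear6 were at 0 in every library. Sex moved with age as well: Kdm5d, on the Y chromosome, was at 3.57 to 20.2 CPM in newborn PMN-MDSC, against 0 in every adult PMN-MDSC library, so age and sex makeup cannot be told apart.

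The part of other cell types in the members' changes was not tested, and in such bulk samples fewer cells that express a gene and less RNA per cell cannot be told apart.

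In M-MDSC the same question of age gave 3 members called higher in newborns, 5 called lower and 1, Clec7a, not called. Among all genes tested 30.2% were called in this comparison, 15.9% higher and 14.3% lower. Ranges did not overlap for 4 members, 1 above and 3 below, while 23.1% of all genes tested had ranges that did not overlap. These calls rest on 3 adult libraries. When only the 8 M-MDSC libraries entered the fit, 0 members were called higher and 2 lower, Clec4a1 and Clec4a3. Without the batch 1 partners of PMN-MDSC, whose spread enters the same fit, 2 were called higher and 3 lower in M-MDSC.

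**Figure D2:**
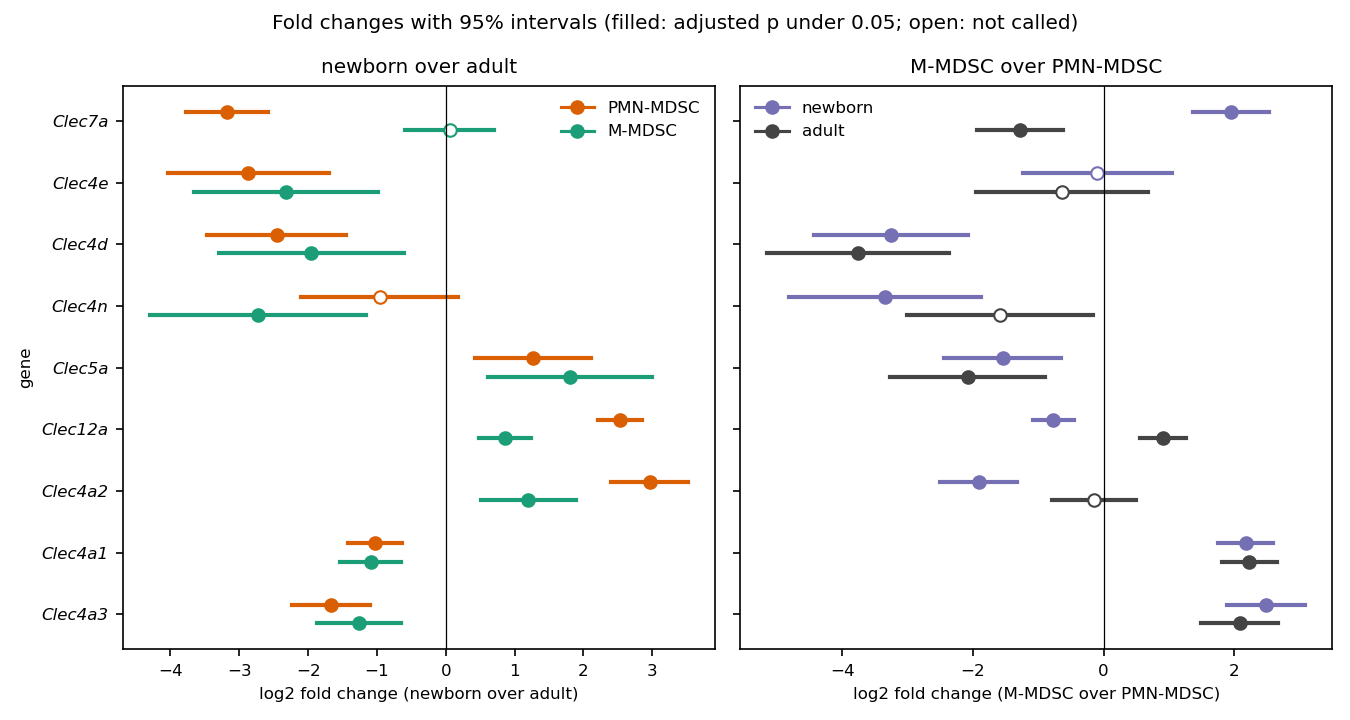
Log2 fold change of each member with its 95% interval, newborn over adult in each cell type (left) and M-MDSC over PMN-MDSC at each age (right); filled points have an adjusted p under 0.05. Clec7a stands at -3.17 in PMN-MDSC and 0.05 in M-MDSC on the left, and on the right it stands above 0 in newborns and below 0 in adults.

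Clec7a was at 254, 112, 159, 301 and 240 CPM in newborn M-MDSC, against 246, 158 and 199 CPM in adult M-MDSC. The 3 adult libraries lay inside the newborn range. The log2 fold change was 0.05 with a 95% interval from -0.59 to 0.70 (adjusted p = 0.920), an interval that excludes the 9.03-fold lower level seen in newborn PMN-MDSC. The age effect in M-MDSC minus that in PMN-MDSC was 3.23 ± 0.42 on the log2 scale (SE; adjusted p = 4.13e-05).

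Clec4e was at 42.3, 20.5, 14.8, 74.9 and 23.8 CPM in newborn M-MDSC, against 411, 63.5 and 61.4 CPM in adult M-MDSC. Adult replicate 1 stood far above the other two, at 6.69 times the lowest, and the adult and newborn ranges overlapped. The log2 fold change of -2.32 ± 0.64 (SE; adjusted p = 0.00973) was -0.84 without that library and no longer called (adjusted p = 0.265). Within batch 1 it was -3.20, and within batch 2, which holds 1 adult library, it was -0.29.

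Clec4d was low in M-MDSC: 1.86, 1.92, 2.32, 6.10 and 3.14 CPM in newborn M-MDSC, against 30.7, 0.830 and 11.0 CPM in adult M-MDSC. Its adult values spanned 37.0-fold and enclosed all of the newborn ones. In the fit the log2 fold change was -1.95 ± 0.64 (SE; adjusted p = 0.0276). Without adult replicate 1 it was -0.90 and not called (adjusted p = 0.271). Leaving out newborn replicate 1, 3 or 79 also ended the call, but the value stayed between -1.94 and -1.84. It was -2.86 within batch 1 and -1.22 within batch 2, called in neither. Clec4n was at 3.71, 3.21, 2.78, 0 and 2.13 CPM in newborn M-MDSC, against 7.68, 6.64 and 22.5 CPM in adult M-MDSC. The value of 0, in replicate 77, comes from a library of 18244049 counts. Its log2 fold change of -2.72 ± 0.75 (SE; adjusted p = 0.00991) was -1.83 and not called without adult replicate 28, the highest adult value (adjusted p = 0.105). Within batch 1 it was -1.13 and not called (adjusted p = 0.0861), and within batch 2 it was -4.26 (adjusted p = 0.0339).

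Clec5a was at 43.2, 25.0, 50.5, 52.0 and 61.6 CPM in newborn M-MDSC, against 27.4, 13.3 and 3.97 CPM in adult M-MDSC. Only newborn replicate 2 fell within the adult range. The log2 fold change was 1.80 ± 0.57 (SE; adjusted p = 0.0214), and it was 1.11 and not called without adult replicate 28 (adjusted p = 0.110). The call was also lost without adult replicate 3 (1.82), without newborn replicate 3 (1.70) and without the batch 1 partners. The value was 0.97 within batch 1, where it was not called, and 3.90 within batch 2.

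Clec12a was at 245, 246, 287, 283 and 258 CPM in newborn M-MDSC, against 100, 113 and 230 CPM in adult M-MDSC. All newborn libraries lay above the adult ones, though adult replicate 28 came close. The log2 fold change was 0.85 ± 0.18 (SE; adjusted p = 0.00146), with 1.27 within batch 1 and 0.29 within batch 2, where it was not called (adjusted p = 0.294).

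Clec4a2 was at 57.6, 76.3, 126, 38.8 and 55.6 CPM in newborn M-MDSC, against 20.8, 25.7 and 43.2 CPM in adult M-MDSC. Newborn replicate 77 lay below the highest adult one. In log2 units Clec4a2 changed by 1.2 ± 0.33 (SE; adjusted p = 0.00977), with 1.88 within batch 1 and 0.20 within batch 2, and the call was lost within batch 2, in limma-voom and without adult replicate 1 (0.98, adjusted p = 0.0578). The difference from the age effect in PMN-MDSC was -1.76 ± 0.41 (SE; adjusted p = 0.00483).

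Clec4a1 and Clec4a3 gave the M-MDSC calls that held most widely. Clec4a1 was at 87.3, 77.6, 75.1, 47.8 and 59.4 CPM in newborn M-MDSC, against 164, 116 and 159 CPM in adult M-MDSC. Clec4a3 was at 53.9, 42.3, 57.4, 19.9 and 54.1 CPM in newborn M-MDSC, against 84.5, 96.7 and 145 CPM in adult M-MDSC. Neither gene's ranges overlapped, and the log2 fold changes were -1.09 ± 0.21 for Clec4a1 (adjusted p = 7.10e-04) and -1.26 ± 0.29 for Clec4a3 (SE; adjusted p = 0.00303). Within batch 1 and batch 2 they were -0.82 and -1.50 for Clec4a1 and -0.83 and -1.88 for Clec4a3. Of 32 alternatives, the fit with the replicate number as a block in batch 1 was the 1 that ended each of these calls.

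In the test of the difference between the 2 age effects, 1 member was called higher (Clec7a) and 2 lower (Clec12a and Clec4a2), while 18.1% of all genes tested were called, 6.61% higher and 11.5% lower. Under upper-quartile scaling the split over all genes was 1157 higher and 1134 lower in place of 856 and 1488, with the members still at 1 higher and 2 lower. For Clec12a the difference was -1.68 ± 0.23 (SE; adjusted p = 4.97e-05). For the other 6 members the 95% intervals of the difference included 0, the narrowest being that of Clec4a1, from -0.66 to 0.54. The widest was that of Clec4n, from -3.71 to 0.18, so these libraries leave a wide range for it.

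Markers of other cells moved with age in M-MDSC too. Dendritic cell markers summed to 58.8 to 395 CPM in newborn M-MDSC, against 2110 to 3084 CPM in adult M-MDSC. B cell markers summed to 164 to 276 CPM in newborn M-MDSC, against 916 to 2288 CPM in adult M-MDSC. Of 11 dendritic cell markers 5 were called lower and 6 were not called, while all 10 B cell markers were called lower. Over all genes tested 15.9% were called higher and 14.3% lower. Neutrophil markers summed to 5437 to 17477 CPM in newborn M-MDSC, against 696 to 1172 CPM in adult M-MDSC. All 10 T cell markers were lower in newborn M-MDSC, with a median log2 fold change of -3.84 and sums of 11.7 to 39.1 CPM in newborn M-MDSC, against 123 to 365 CPM in adult M-MDSC. Macrophage markers were lower for 7 of 11 and NK cell markers for 5 of 7, with none higher. Eosinophil markers were higher for 5 of 8 and lower for 1, with sums of 53.3 to 222 CPM in newborn M-MDSC, against 15.4 to 47.4 CPM in adult M-MDSC, where Epx, Prg3, Ear1 and Ear6 were at 0. Of 10 erythroid markers none passed in either direction, and of 11 monocyte markers 1 was higher and 5 lower. Kdm5d was at 1.28 to 17.8 CPM in newborn M-MDSC, against 0 in every adult M-MDSC library. The part of these cells in the members' values was not tested.

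Set against PMN-MDSC of the same age, M-MDSC differed in the level of most of the receptors. In newborns 3 members were called higher in M-MDSC and 5 lower, while 42.0% of all genes tested were called, 18.7% higher and 23.4% lower. Upper-quartile scaling turned that split over all genes, from 2414 higher and 3023 lower to 2934 and 2528, with the members at 3 higher and 5 lower as before. In adults 3 were called higher and 3 lower, while 29.1% of all genes tested were called, 16.7% higher and 12.5% lower. With DESeq2's Wald test the adult split was 2205 higher and 2582 lower in place of 2158 and 1614, with the members at 3 higher and 4 lower. Ranges did not overlap for 8 members in newborns and 6 in adults, against 38.4% and 29.7% of all genes tested. These comparisons use the same libraries as the age comparisons.

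Clec4a1 and Clec4a3 were higher in M-MDSC at both ages. Clec4a1 was 4.51-fold higher in M-MDSC than in PMN-MDSC of newborns (adjusted p = 1.03e-07) and 4.70-fold higher in adults (adjusted p = 1.62e-07). For Clec4a3 the fold was 5.60 in newborns (adjusted p = 1.39e-06) and 4.24 in adults (adjusted p = 1.83e-05). Clec4d and Clec5a were lower in M-MDSC at both ages, Clec4d by 9.53-fold in newborns (adjusted p = 1.38e-04) and by 13.5-fold in adults (adjusted p = 3.21e-04). Clec5a was 2.92-fold lower in newborns (adjusted p = 0.00688) and 4.23-fold lower in adults (adjusted p = 0.00963), and the newborn call was lost within batch 2 (adjusted p = 0.0530). The adult call was lost without adult M-MDSC replicate 28 (log2 fold change -1.36 in place of -2.08), within batch 1, without the batch 1 partners and with only the groups compared in the fit.

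Clec7a and Clec12a changed sides with age. Clec7a was 3.88-fold higher in M-MDSC than in PMN-MDSC of newborns (adjusted p = 1.58e-05) and 2.42-fold lower in adults (adjusted p = 0.00525). Clec12a was 1.70-fold lower in M-MDSC of newborns (adjusted p = 5.31e-04) and 1.88-fold higher in adults (adjusted p = 4.27e-04). The adult call of Clec7a was lost within batch 1 and without the batch 1 partners, and that of Clec12a within batch 1. Without adult M-MDSC replicate 28 the adult log2 fold change of Clec12a was 0.48 in place of 0.91. Clec4a2 was 3.75-fold lower in M-MDSC of newborns (adjusted p = 2.56e-05) and did not pass in adults (log2 fold change -0.15, 95% interval -0.79 to 0.50).

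Clec4n was 10.2-fold lower in M-MDSC of newborns (adjusted p = 8.24e-04) and 2.99-fold lower in adults, where it did not pass (adjusted p = 0.0875) and where 6 of 32 alternatives called it, among them leaving out adult M-MDSC replicate 28 (log2 fold change -2.57 in place of -1.58). Clec4e did not pass at either age, with 95% intervals of -1.23 to 1.05 in newborns and -1.96 to 0.68 in adults. Without adult M-MDSC replicate 1, the library with 411 CPM, Clec4e was called lower in adult M-MDSC (log2 fold change -2.22, adjusted p = 0.0100).

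The order of the 4 groups by mean CPM follows from these values. Clec12a ran from newborn PMN-MDSC (465 ± 20.3 CPM) through newborn M-MDSC (264 ± 19.9) and adult M-MDSC (148 ± 71.3) to adult PMN-MDSC (79.2 ± 8.05; SD, n = 5, 5, 3 and 6), and each neighbouring pair had ranges that did not overlap. Clec7a ran from adult PMN-MDSC (501 ± 181 CPM) through newborn M-MDSC (213 ± 76.3) and adult M-MDSC (201 ± 44.0), whose ranges overlap, to newborn PMN-MDSC (56.4 ± 7.98). Clec4a1 and Clec4a3 shared 1 order: adult M-MDSC, newborn M-MDSC, adult PMN-MDSC and newborn PMN-MDSC.

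Levels of different genes can be set beside each other only per length, here as CPM per kilobase of annotated exons. In newborn PMN-MDSC the 2 inhibitory receptors stood highest, Clec4a2 at 90.9 ± 14.9 and Clec12a at 84.1 ± 3.67 CPM per kilobase (SD, n = 5), followed by Clec5a at 35.7 ± 2.33. In adult PMN-MDSC Clec7a led at 190 ± 68.8 CPM per kilobase, followed by Clec4d at 117 ± 51.4 and Clec4e at 56.8 ± 30.3 (SD, n = 6). The order of Clec4a2 and Clec12a in newborn PMN-MDSC was reversed when the longest transcript served as the length (107 and 144 CPM per kilobase).

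In newborn M-MDSC Clec7a led at 80.9 ± 28.9 CPM per kilobase, followed by Clec12a at 47.7 ± 3.61 and Clec4a1 at 44.6 ± 10.1 (SD, n = 5). In adult M-MDSC Clec4a1 led at 93.9 ± 16.8 CPM per kilobase, followed by Clec4a3 at 81.9 ± 24.1 and Clec7a at 76.1 ± 16.7 (SD, n = 3), values whose ranges overlap. In the PMN-MDSC groups, no gene among the 3 highest in newborns was among the 3 highest in adults.

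**Figure D3:**
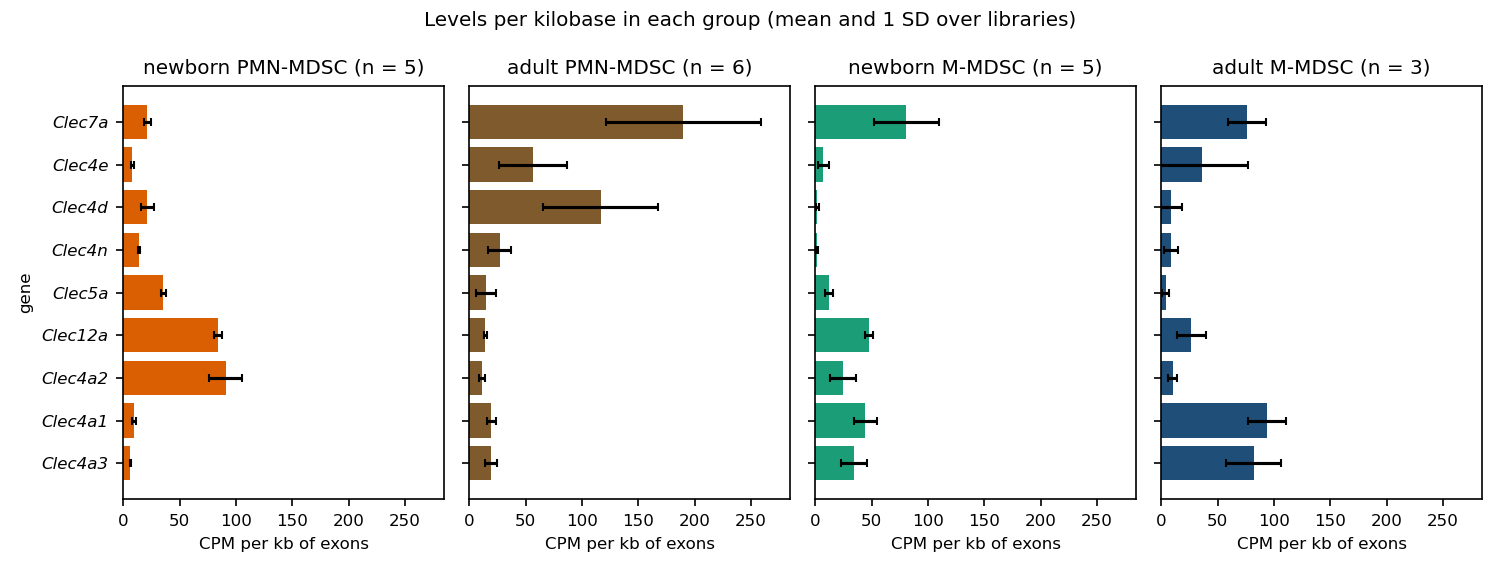
Level of each member per kilobase of exons in each group (bar, mean over libraries; error bar, 1 SD). Clec4a2, Clec12a and Clec5a are the longest bars in newborn PMN-MDSC, Clec7a, Clec4d and Clec4e in adult PMN-MDSC.

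As shares of the summed level per kilobase of all 9 members, Clec4a2, Clec5a and Clec12a together made up 72.3% ± 2.28 in newborn PMN-MDSC (SD, n = 5), against 9.08% ± 1.48 in adult PMN-MDSC (SD, n = 6). Clec4d, Clec4e and Clec7a together made up 17.4% ± 2.56 in newborn PMN-MDSC, against 75.5% ± 7.07 in adult PMN-MDSC. These 2 sets were formed after their directions were known, so the shares describe the size of the shift and carry no test. In M-MDSC the first set made up 33.2% ± 5.50 in newborns, against 12.0% ± 3.58 in adults, and the second 34.9% ± 11.8 in newborns, against 34.0% ± 12.8 in adults. Clec4a1 and Clec4a3 made up 31.2% ± 8.11 in newborn M-MDSC, against 51.6% ± 8.36 in adult M-MDSC (SD, n = 5 and 3).

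The spread between libraries was itself uneven. Within newborn PMN-MDSC the coefficient of variation of the 9 members ran from 4.37% for Clec12a to 27.9% for Clec4d. Within adult PMN-MDSC it ran from 10.2% for Clec12a to 58.3% for Clec5a, and it was higher in adults than in newborns for each of the 9. In adult PMN-MDSC Clec4d, Clec4e, Clec5a and Clec7a were highest in replicates 1 and 32, intermediate in replicates 2 and 33 and lowest in replicates 3 and 34.

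Relative to the mean of the 3 adult PMN-MDSC libraries of a batch, Clec4e was at 1.64, 0.962 and 0.403 in replicates 1, 2 and 3 and at 1.57, 1.00 and 0.429 in replicates 32, 33 and 34. Clec4n did not share this order and was highest in replicates 2 (1.47) and 33 (1.50). Clec5a, which was higher in newborns, thus varied with Clec4d, Clec4e and Clec7a, which were lower in newborns. Clec4a1 and Clec4a3, also lower in newborns, went the other way. They were lowest in replicates 1 (0.767 and 0.679) and 32 (0.764 and 0.787). Because the libraries of these pairs resemble each other throughout, the second batch does not repeat the order independently.

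**Figure D4:**
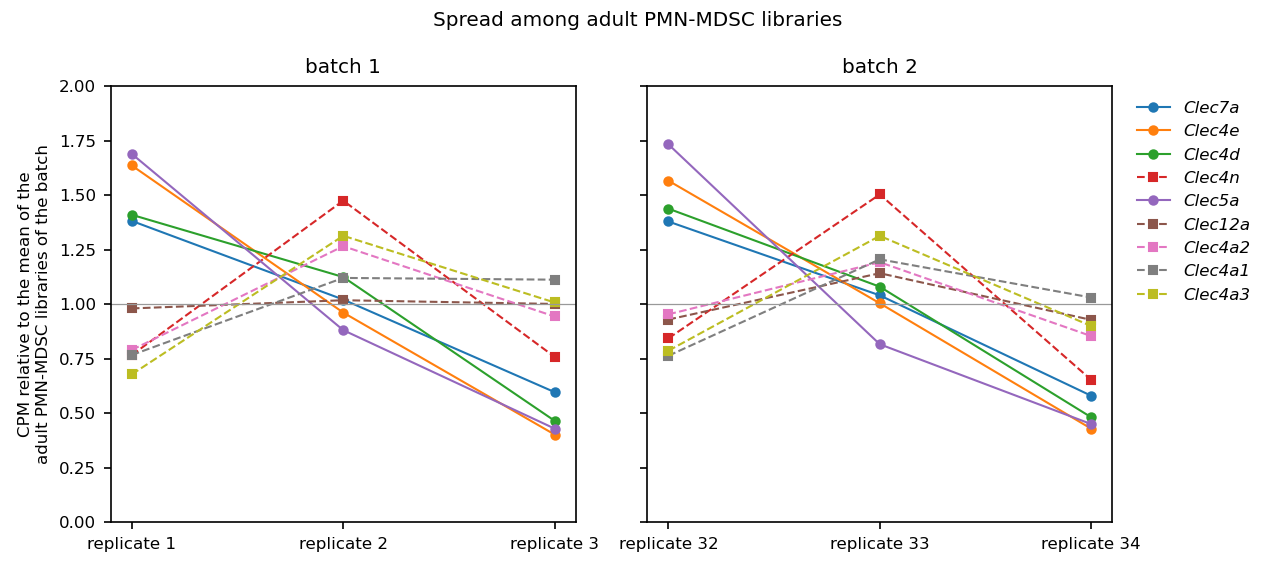
CPM of each member in the adult PMN-MDSC libraries, divided by the mean of the 3 libraries of the batch. Lines join the values of 1 gene for reading only, since replicates have no order; solid lines (Clec7a, Clec4e, Clec4d and Clec5a) lie highest in replicates 1 and 32 and lowest in replicates 3 and 34.

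Genes of similar pattern were sought over the 19 libraries among 8529 genes, by the root mean square difference of log2 CPM after each gene was centred on its own mean. The closest to Clec12a were Itpripl2 (0.20), Stx2 (0.22) and Abcd2 (0.24), against a median of 1.17 over all candidates. To Clec4a2 the closest was Ncf1 (0.37), a subunit of the neutrophil oxidase, and to Clec4a3 the protease gene Ctss (0.33) and Clec4a1 (0.37). For Clec4e they were Plk2 (0.49), Per1 (0.50) and the inflammasome gene Nlrp3 (0.50), and for Clec7a the cytokine receptor gene Il13ra1 (0.45). For Clec4a1 the closest was Inppl1 (0.32), for Clec4n Epb41l3 (0.53) and for Clec5a Ogfrl1 (0.60). For Clec4d the nearest was Slfn4 (0.94), against a median of 2.66 over all candidates. The distance was not scaled to a gene's own spread, which was largest for Clec4d among the members (SD of log2 CPM 2.61). Among the members themselves, Clec4a1 and Clec4a3 (0.37) and Clec4a2 and Clec12a (0.64) were the pairs under 1. All these values share the libraries and their scaling, and they are descriptions.

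The genes through which the receptors signal did not follow 1 direction. Their counts stand beside a background of 27.1% of all genes higher and 20.5% lower in newborn PMN-MDSC and of 15.9% higher and 14.3% lower in newborn M-MDSC. All 3 adaptors were higher in newborn than in adult PMN-MDSC, with log2 fold changes of 1.12 ± 0.27 for Fcer1g (adjusted p = 0.00243), 0.83 ± 0.24 for Tyrobp (adjusted p = 0.00848) and 1.88 ± 0.62 for Hcst (SE; adjusted p = 0.0175). Fcer1g, which carries the signal of Clec4d, Clec4e and Clec4n, was at 184 to 279 CPM in newborn PMN-MDSC, against 64.2 to 138 CPM in adult PMN-MDSC. It was thus higher where Clec4d and Clec4e were lower. None of the 3 adaptors passed in M-MDSC, where Fcer1g had a log2 fold change of -0.47 ± 0.33 and Hcst of -1.16 ± 0.81 (SE). The age effects differed between the cell types for Fcer1g (-1.59 ± 0.43, adjusted p = 0.0136) and Hcst (-3.04 ± 1.03, SE; adjusted p = 0.0468).

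Of 20 genes of activating signalling, 8 were higher and 5 lower in newborn PMN-MDSC, with a median log2 fold change of 0.19, against -0.05 over all genes. The 5 of 20 lower are close to the share over all genes. Card9, the scaffold that links Syk to NF-kB, was at 88.6 to 105 CPM in newborn PMN-MDSC, against 27.4 to 37.2 CPM in adult PMN-MDSC (log2 fold change 1.61 ± 0.13, SE; adjusted p = 7.65e-09). Vav1 (0.82) and Plcg2 (0.92) were also higher in newborns, and Nfatc2 (-1.86), a transcription factor of the calcium branch, was lower. In newborn M-MDSC 2 of the 20 were higher and 9 lower, with a median of -0.50, against 0.01 over all genes. The lower ones included the calcium channel gene Itpr2 (-1.51), Syk (-0.79), Nfatc2 (-1.38) and Nfatc1 (-0.78).

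Among 5 genes of the inhibitory list, 3 were higher and 1 lower in newborn PMN-MDSC, where 47.7% of all genes were called. Ptpn11 (log2 fold change 1.33 ± 0.11, SE; adjusted p = 8.20e-09) and Ptpn6 (0.63 ± 0.23, SE; adjusted p = 0.0317), the phosphatases that Clec12a and Clec4a2 recruit, were higher along with the lipid phosphatase gene Inpp5b (1.75). Dusp1, which switches off kinases of the MAP family, was lower (-1.86). In newborn M-MDSC 2 were higher, Ptpn11 (0.45) and Inpp5b (0.74), and 1 was lower, Dusp1 (-1.61).

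**Figure D5:**
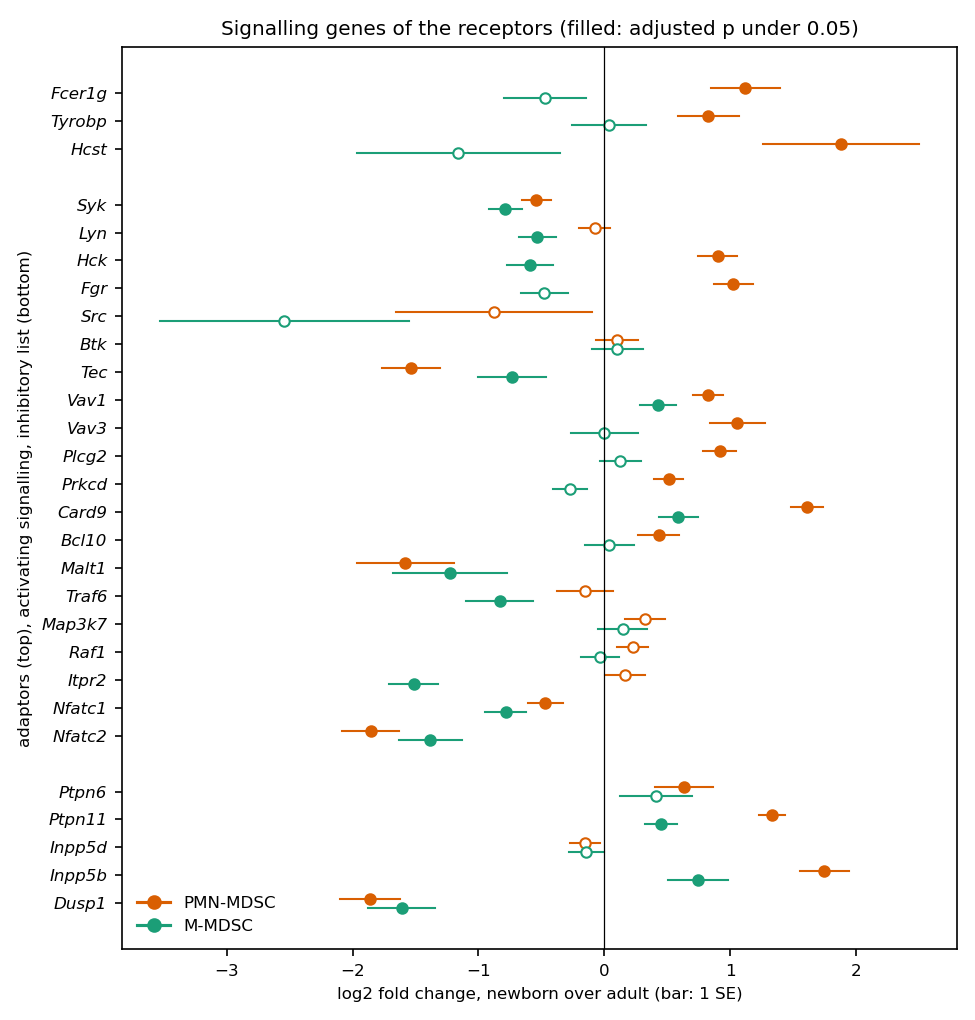
Log2 fold change, newborn over adult, of the adaptor, activating and inhibitory signalling genes in PMN-MDSC and M-MDSC (bar, 1 SE; filled points, adjusted p under 0.05). The 3 adaptors lie between 0.83 and 1.88 in PMN-MDSC, and Card9 stands at 1.61.

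Genes that these receptors can induce were mostly lower in newborns. Of 18 listed, 14 were tested and 12 were lower in newborn PMN-MDSC, with 0 higher. Il1b was at 89.0 to 168 CPM in newborn PMN-MDSC, against 1496 to 2765 CPM in adult PMN-MDSC (log2 fold change -3.90 ± 0.42, SE; adjusted p = 4.38e-07). Ptgs2 (-3.95), the inducible prostaglandin synthase, Ccl3 (-3.31), a chemokine, and Egr3 (-2.94), an early response transcription factor, were lower as well. In newborn M-MDSC 10 of the 14 were lower and 0 higher, among them Egr3 (-2.49), Egr2 (-5.79), Cxcl2 (-4.29) and Il1b (-2.41). The median over the 14 was -3.33 in PMN-MDSC and -2.61 in M-MDSC. Of 5 NF-kB subunits, 3 were lower and 1 higher in newborn PMN-MDSC, and 3 were lower in newborn M-MDSC, with Nfkb2 (-2.0 in PMN-MDSC and -1.66 in M-MDSC) and Relb (-2.28 and -2.11) lower in both. Many other receptors induce the same genes.

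Among 15 other C-type lectin genes tested of 27 listed, 2 were higher and 6 lower in newborn PMN-MDSC. These 8 of 15 are close to the 47.7% of all genes called there. Ly75, the endocytic receptor DEC-205, was at 443 to 493 CPM in newborn PMN-MDSC, against 23.0 to 48.6 CPM in adult PMN-MDSC (log2 fold change 3.60 ± 0.28, SE; adjusted p = 4.74e-09). The activation marker gene Cd69 was at 4.38 to 8.87 CPM in newborn PMN-MDSC, against 93.0 to 153 CPM in adult PMN-MDSC (-4.29 ± 0.41, SE; adjusted p = 8.60e-08). In newborn M-MDSC, where 30.2% of all genes were called, 2 were higher and 6 lower: Mgl2, a galactose-binding lectin, was higher (4.10 ± 0.64, SE; adjusted p = 9.37e-05) and the mannose receptor gene Mrc1 was lower (-2.87 ± 0.37, SE; adjusted p = 1.40e-05).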

How the data were processed

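Per the labels' protocols, total RNA of spleen MDSC, isolated by flow sorting or, for PMN-MDSC, possibly by magnetic Ly6G selection (both are described), was read from 1 end over 50 bp. The authors deposited estimated counts per gene and library; RSEM 1.2.3, DESeq2 (with no role given) and the build mm10 are named in the submitters' processing notes. The deposited estimated counts are whole numbers and were used as they stand. Genes were kept by edgeR's filterByExpr, which left 12943 of 38887, and libraries were scaled by TMM. CPM here are counts per 1000000 of the scaled library size. All 19 libraries entered 1 fit of group plus batch in edgeR 4.0.16 (R 4.3.3; quasi-likelihood test, 14 residual degrees of freedom), from which each contrast was taken, with Benjamini-Hochberg adjustment over all genes tested and a threshold of 0.05. Intervals are 95%. The procedure was tested on simulated data for newborn against adult PMN-MDSC only, with few genes changed and all libraries independent. The other contrasts, paired libraries and a large share of changed genes were not simulated. Lengths and positions came from GENCODE M21 (96.6% of gene IDs matched) and promoters from RefSeq.

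The 9 members and all gene lists were chosen with earlier results of these data known. Named genes were all members, up to 4 called genes of each list per comparison by adjusted p (up to 2 where none was called), and the 3 genes of most similar pattern, chosen by rule. Ly6g, Itgam, Csf1r and Ccr2 were set as checks of the labels. Of these, the levels of Itgam and Csf1r by themselves are not given here. A Y-linked gene was added after its values were seen. Alternatives included DESeq2 1.42.0 and limma 3.58.1 (voom), other scalings and filters, each batch alone, a replicate block and leaving out each library.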

Additional observations from a re-analysis of the deposited data

Results flagged for a closer look

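The age effect differed between the cell types for 3 members in a test of the difference itself (edgeR's quasi-likelihood test, Benjamini-Hochberg adjusted). For Clec7a the age effect in M-MDSC minus that in PMN-MDSC was 3.23 on the log2 scale, and it was called under all 31 alternatives. For Clec12a it was -1.68, also called under all 31 alternatives, and for Clec4a2 it was -1.76, which was not called within batch 1 or with the replicate block there. In each of the 5 newborn PMN-MDSC libraries Clec7a was below, and Clec12a and Clec4a2 above, all 6 adult PMN-MDSC libraries.

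Clec12a in adult PMN-MDSC replicate 33 was at 95.3 CPM, apart from the other 5 libraries of the group, of which the nearest was at 77.6 CPM. It was the 1 such library in 27 groups examined, and chance gives about 1 in 20.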

How the results depend on the processing

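Over the 9 members and 5 comparisons, 1335 of 1431 values under alternatives kept their direction and side of the threshold, 46 lost the call and 11 gained one. The other 39 had the opposite sign but were called neither as reported nor under the alternative, and 0 called values changed sign. These 39 lie in 8 results that did not pass, 15 of them in Clec7a in M-MDSC by age (-0.21 to 0.49, reported as 0.05) and 8 in the difference for Clec4a1 (-0.50 to 0.21). Of the 46 losses, 33 were in newborn against adult M-MDSC and 2 in PMN-MDSC. The adult M-MDSC group has 3 libraries, 1 of them in batch 2, and the depth of batch 1 limits Clec4d and Clec4n in M-MDSC, where single libraries held 2 to 56 counts. In limma-voom Clec4a2, Clec4d and Clec4e lost the age call in M-MDSC.

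The number of genes called in PMN-MDSC by age (6171) was 9548 with only the groups compared in the fit, 3760 in batch 1, 3663 with the replicate block and 3740 without the batch 1 partners. In M-MDSC by age (3910) it was 1267 with only the groups compared. For the difference (2344) it was 3580 with limma-voom, 408 in batch 1, 609 with the replicate block, 4254 in batch 2 and 968 without the partners. M-MDSC against PMN-MDSC gave 5437 in newborns, with 3231 in batch 1 and 3615 with the replicate block, and 3772 in adults, with 5901 under limma-voom, 1368 in batch 1, 1588 with the replicate block, 6457 in batch 2 and 2407 without the partners. The causes were not tested.

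Leaving out 1 library gave 5459 to 7104 for PMN-MDSC by age, 3450 to 4340 for M-MDSC by age, 2021 to 2905 for the difference, 4777 to 6328 in newborns and 2250 (without adult M-MDSC replicate 28) to 5036 in adults between the cell types. Upper-quartile scaling moved the median of all genes by -0.24 in PMN-MDSC by age, 0.17 for the difference and 0.15 between the cell types in newborns. DESeq2's size factors moved it by -0.17 in PMN-MDSC by age (2982 higher and 3304 lower) and turned the split in M-MDSC by age from 2054 higher and 1856 lower to 1797 and 2138, with the members at 3 higher and 5 lower in both.

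Replicate numbers are shared between groups in batch 1, but the labels do not say what a number marks. Deviations of libraries from their group mean in batch 1 correlated across genes at -0.05 to 0.18 over 12 same-numbered pairs. Over 25 other pairs they correlated at -0.18 to 0.08. Newborn PMN-MDSC and adult M-MDSC have 2 libraries each in batch 1, whose deviations mirror each other. The values 0.18 and -0.18 are thus the same value with its sign changed. The pairs are not independent, so these ranges cannot show whether a number marks a pairing. With the block, Clec4a1 (adjusted p = 0.0650), Clec4a3 (adjusted p = 0.0545), Clec4n and Clec5a were not called in M-MDSC by age. Clec4e was then called lower in newborn M-MDSC than in newborn PMN-MDSC. Between the cell types in adults, Clec12a lost its call and Clec4n gained one, and Clec4a2 lost its call in the difference of the age effects. Levels moved by more than 1 SD in 9 of 36 cases with plain library sizes and per-kilobase levels in 6 of 36 with the longest transcript as the length.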
